A study of Mus musculus with 12 samples.

Results

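The Hox genes are the 39 genes in the files whose symbols consist of Hoxa, Hoxb, Hoxc or Hoxd and a paralogue number, out of 24062 gene symbols in all. In the mouse genome (GRCm38, GENCODE M21 annotation) they lie in 4 clusters. The Hoxa cluster holds 11 genes on chromosome 6 (minus strand), the Hoxb cluster 10 on chromosome 11 (chr11:96194316-96368256, plus strand), the Hoxc cluster 9 on chromosome 15 (chr15:102921103-103036852, plus strand) and the Hoxd cluster 9 on chromosome 2 (chr2:74668310-74765142, plus strand). Members were chosen by gene name alone, but the family was selected on measured values: its counts and fold changes in these libraries were known when it was singled out, so its calls are given as a description and not as independent evidence.

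RNA was sequenced from mouse (C57BL/6J) bone marrow cells in 12 libraries, 3 in each of 4 groups. The rMSC group was cultured stroma transduced with Klf7, Ostf1, Xbp1, Irf3 and Irf7 together, which the submitters call revitalized mesenchymal stromal cells. The control group was cultured stroma transduced with the control vector. Both cultures were grown in 20% fetal bovine serum and 10 ng/ml basic FGF and, per the growth protocol, were started from freshly sorted cells of the next group. GFPpos cells were sorted directly from digested marrow as negative for CD45 (carried by blood cells), Ter119 (carried by the red cell lineage) and CD31 (carried by vessel lining cells) and positive for a green fluorescent reporter of Scf, the stem cell factor gene that the files list as Kitl. GFPneg cells passed the same 3 exclusions and were negative for the reporter. Fresh cells carried no transduced gene. Age, sex and pooling of the animals are not given in the labels used here, nor whether libraries of 1 group came from separate animals or transductions, so p-values measure the spread between these libraries only.

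Hox genes encode homeodomain transcription factors that give cells their position along the head-to-tail axis and along the limbs of the embryo. Within a cluster the genes stand in the order in which they are used along the axis, low paralogue numbers towards the head and high numbers towards the tail and the tips of the limbs, and genes of the same number in different clusters descend from a shared ancestral gene. Adult connective tissue and skeletal stroma keep region-specific Hox patterns, while in blood cells the Hoxa genes are best known from stem and progenitor cells.

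The stretches before the start sites of 4 of the genes are shown as examples of both sides of the main contrast in the data, among the genes with a RefSeq stretch at hand: Hoxb4, Hoxb8 and Hoxd8 had 0 or nearly 0 counts in rMSC libraries, while Hoxa10, shown at both of its annotated starts, was among the most abundant Hox genes there. Each is 250 bases of RefSeq sequence (GRCm38.p6), read 5′ to 3′ on the gene's strand and ending at the base before the start, with every CG dinucleotide in capitals.
Hoxb4, chr11:96318017-96318266, plus strand: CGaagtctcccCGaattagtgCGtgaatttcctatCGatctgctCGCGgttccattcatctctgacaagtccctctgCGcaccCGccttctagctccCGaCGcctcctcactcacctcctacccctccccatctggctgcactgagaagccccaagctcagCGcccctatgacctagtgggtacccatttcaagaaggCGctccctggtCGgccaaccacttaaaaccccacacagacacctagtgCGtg
Hoxb8, chr11:96281655-96281904, plus strand: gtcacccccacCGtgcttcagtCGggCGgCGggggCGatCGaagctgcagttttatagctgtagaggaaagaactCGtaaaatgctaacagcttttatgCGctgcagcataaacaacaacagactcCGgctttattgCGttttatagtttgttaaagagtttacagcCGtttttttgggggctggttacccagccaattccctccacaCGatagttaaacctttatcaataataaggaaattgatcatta
Hoxd8, chr2:74704365-74704614, plus strand: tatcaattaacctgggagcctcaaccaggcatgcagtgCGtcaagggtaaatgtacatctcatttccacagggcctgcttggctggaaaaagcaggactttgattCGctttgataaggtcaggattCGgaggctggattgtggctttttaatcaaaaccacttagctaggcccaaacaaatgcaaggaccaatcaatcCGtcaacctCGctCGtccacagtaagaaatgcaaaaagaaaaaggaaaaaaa
Hoxa10, chr6:52240855-52241104, minus strand: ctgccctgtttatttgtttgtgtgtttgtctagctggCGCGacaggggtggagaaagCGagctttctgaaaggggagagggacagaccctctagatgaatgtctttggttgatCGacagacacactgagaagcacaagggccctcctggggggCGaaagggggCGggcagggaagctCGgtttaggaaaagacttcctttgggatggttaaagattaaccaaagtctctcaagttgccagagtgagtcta
Hoxa10, chr6:52234940-52235189, minus strand: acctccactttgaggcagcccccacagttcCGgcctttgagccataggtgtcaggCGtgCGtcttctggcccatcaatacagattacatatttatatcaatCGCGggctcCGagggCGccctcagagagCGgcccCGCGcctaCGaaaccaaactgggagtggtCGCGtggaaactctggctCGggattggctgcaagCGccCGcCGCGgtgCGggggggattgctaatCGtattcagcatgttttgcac

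The Hoxb4 stretch holds 14 CG dinucleotides, the Hoxb8 stretch 12 and the Hoxd8 stretch 6, and the Hoxa10 stretches hold 7 and 20. Of 32851 RefSeq start sites, 29.4% had at least as many as Hoxb4, 33.5% as many as Hoxb8 and 50.4% as many as Hoxd8. RefSeq stretches were at hand for 22 of the 39 Hox genes at 24 start sites. Their CG count ran between 2 and 35 with a median of 12.5, against a median of 6 over all 32851. The letters CCAAT, searched on both strands, were in 14 of the 24 Hox stretches and in 33.8% of all, and TATAAA in 4 of the 24 and in 12.4% of all. Hoxb8 held CCAAT once and TATAAA in 2 places, Hoxd8 held CCAAT once, Hoxb4 neither. The Hoxa10 stretch with 20 CG dinucleotides held each in 1 place, and the one with 7 held neither. The CG counts of the stretches shown lay between the lowest and the highest of the Hox stretches. A link of CG count or of these letters with the levels was not tested.

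Counts per library summed to between 60507051 and 85353566. Levels are counts scaled to library size in the usual unit CPM, given as mean ± SD over 3 libraries. A floor of 3 counts in a library corresponds to between 0.0358 and 0.0547 CPM and covers counting error only. The 5 transduced genes rose in rMSC against control by 0.85 to 4.56 on the log2 scale. The labelled cell types were checked with marker lists. Summed levels of 8 stroma markers lay at 7243 to 7325 CPM in rMSC, 20045 to 20200 in control, 117980 to 143096 in GFPpos and 0.465 to 45.7 in GFPneg libraries. The GFPneg libraries, whose source is labelled as stromal, were near 0 for these markers: 0 of the 8 were at 0 in every library, but Kitl, Pdgfra, Pdgfrb and Ebf3 had 0 counts in replicate 2. Summed levels of 9 red cell markers lay at 37.9 to 41.96 CPM in rMSC, 31.3 to 37.1 in control, 1072 to 1946 in GFPpos and 6590 to 6908 in GFPneg libraries. In bulk RNA, fewer cells of a type and less RNA per cell cannot be told apart.

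All 4 groups differed in which clusters their Hox RNA came from. The summed level of the 39 genes was 258, 259.9 and 253 CPM in the rMSC libraries, 260.03, 248 and 257 in control, 127, 137 and 192 in GFPpos and 4.61, 6.15 and 6.36 in GFPneg. The cultures thus overlapped in their totals, both lay above GFPpos, and GFPneg was far below the others. In rMSC, Hoxc genes made up 64.1 ± 0.967% of this sum, Hoxa genes 35.9 ± 0.968%, Hoxd genes at most 0.0379% and Hoxb genes 0 (SD, n = 3 libraries). Control stroma divided its Hox RNA into 53.8 ± 0.906% Hoxc, 26.9 ± 0.326% Hoxa, 18.6 ± 1.02% Hoxb and 0.619 ± 0.12% Hoxd. GFPpos cells had mostly Hoxa RNA, at 63.5 ± 2.50%, with 20.8 ± 2.14% Hoxc, 10.3 ± 1.06% Hoxb and 5.42 ± 0.52% Hoxd. GFPneg RNA was 86.5 ± 3.51% Hoxa and 12.4 ± 4.44% Hoxb, on totals of only 312 to 515 Hox counts per library.

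**Figure D1:**
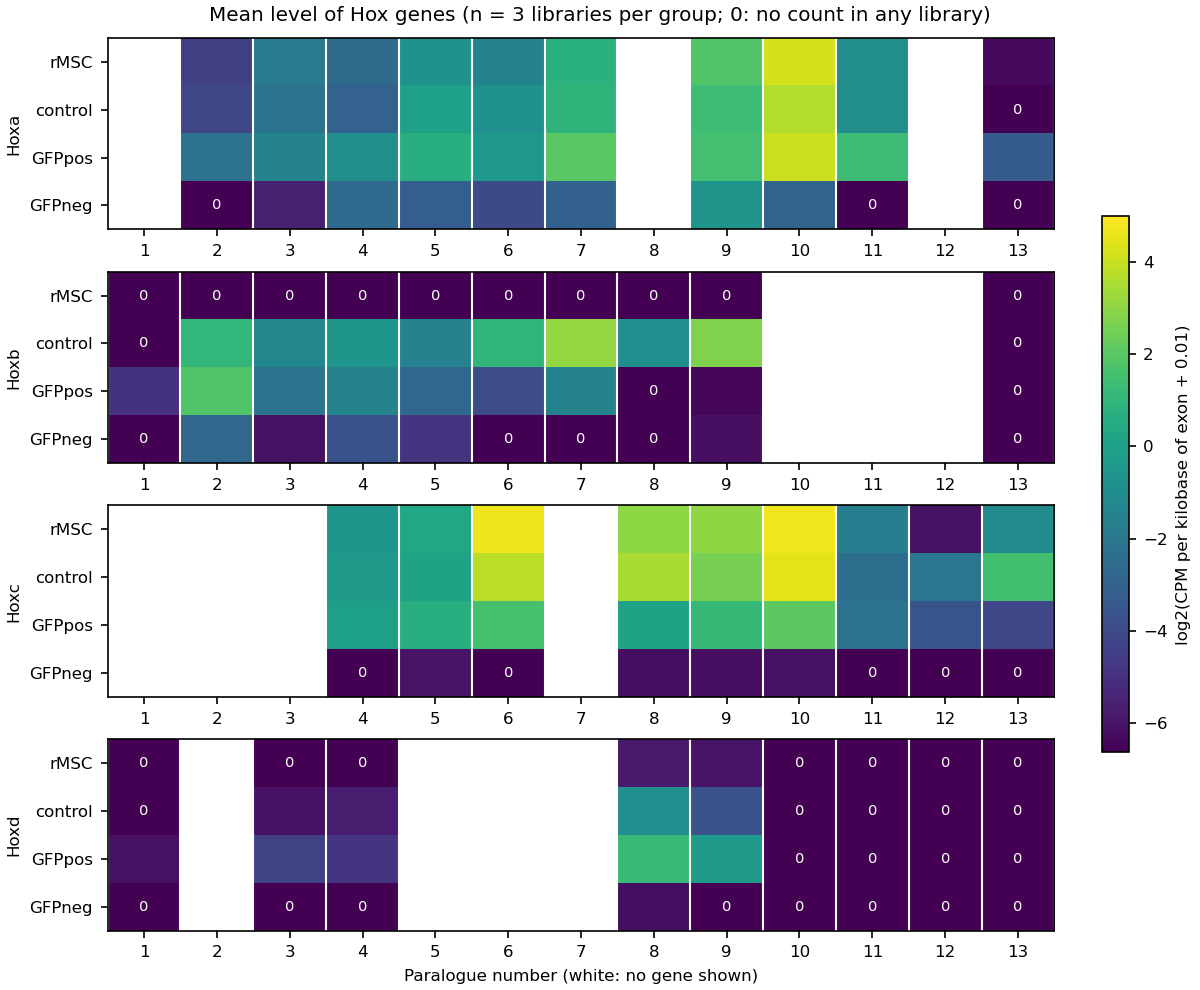
Mean level of 38 Hox genes per kilobase of exon, as log2(CPM per kilobase + 0.01), by cluster (panels, Hoxa at the top to Hoxd at the bottom), group (rows) and paralogue number (columns), over 3 libraries per group. The whole Hoxb row of rMSC stands at 0, whereas control stroma has counts of Hoxb2 to Hoxb9, and paralogues 10 to 13 of the Hoxd cluster are at 0 in all groups.

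Per kilobase of exon, which allows genes to be set against each other, Hoxc10 led in rMSC at 26.7 ± 0.867 CPM per kilobase, with Hoxc6 at 26.2 ± 0.635 within its spread and Hoxa10 next in order at 18.3 ± 0.437. Hoxc10 also led in control at 23.2 ± 0.761, ahead of Hoxc6 at 13.9 ± 0.304 and Hoxa10 at 12.8 ± 0.50, followed by Hoxc8 at 11.3 ± 0.678, Hoxb7 at 8.56 ± 0.498 and Hoxb9 at 6.79 ± 0.44. In GFPpos, Hoxa10 led at 16.8 ± 4.52, and the next 8 genes, Hoxc10, Hoxa7, Hoxb2, Hoxc6, Hoxa9, Hoxa11, Hoxd8 and Hoxc9, lay between 2.19 and 4.23 with neighbours closer than their SDs. Hoxa9, a gene known from blood progenitors and leukaemia, led in GFPneg at only 0.651 ± 0.123. By paralogue number, genes 9 to 13 supplied 58.4 to 60.6% of the summed Hox CPM in rMSC, 55.2 to 55.8% in control, 58.7 to 62.6% in GFPpos and 68.7 to 74.0% in GFPneg, and genes 1 to 3 supplied 1.62 to 2.30%, 4.60 to 4.94%, 10.5 to 12.1% and 7.05 to 12.2% in the same order of groups.

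Of the 39 genes, 29 passed the filter on low counts and were tested, by edgeR's quasi-likelihood test fitted on all 12 libraries with p adjusted over 15163 genes (threshold 0.05). The 10 not tested were Hoxa13, Hoxb1, Hoxb13, Hoxd1, Hoxd3, Hoxd4 and Hoxd10 to Hoxd13. Hoxb13 and Hoxd10 to Hoxd13 had 0 counts in all 12 libraries. A gene with high counts in only 1 group passes the filter through that group, so counts of calls describe the genes tested and not all 39. Where groups are said not to overlap, this describes the named gene only. The share of all genes without overlap was not counted.

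rMSC against control compares cultured stroma given the 5 genes with cultured stroma given the control vector. The Hoxb cluster was silent in the rMSC libraries at this depth: its 10 genes had 0 counts among 196515615 counts in the 3 libraries together, against 10036 Hoxb counts among 209421944 in control. All 8 Hoxb genes tested fell, as did Hoxc12, Hoxc13, Hoxd8 and Hoxd9, while Hoxa9, Hoxa10 and Hoxc6 rose. The 12 falls and 3 rises stand against 25.5% of all tested genes called lower and 24.5% called higher (50.1% in either direction). The median log2 fold change of the 29 Hox genes was -0.49, both as fitted and with genes at 0 set to their bound, against -0.01 over all genes tested. Marker lists moved in mixed directions in the same comparison. Of 8 stroma markers, 2 rose and 3 fell: the lower sum in rMSC lay mostly in Col1a1 (4632 ± 46.6 CPM in rMSC and 11975 ± 58.6 in control) and Cxcl12 (1217 ± 15.1 and 5636 ± 118, not past the threshold), whereas Lepr (17.7 ± 1.33 and 0.28 ± 0.104) and Kitl (249.6 ± 11.8 and 33.8 ± 4.41) rose. Of 8 pan-haematopoietic markers 1 rose (Coro1a), 1 fell (Cd53) and 6 did not pass, with sums of 4.98 to 5.96 CPM in rMSC and 14.5 to 15.9 in control. Their part in the Hox differences was not tested.

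At the end of the cluster used towards the tail, Hoxb9, active in the thorax of the embryo, had 0, 0 and 0 counts in the rMSC libraries, against 1294, 1145 and 1253 in control. Hoxb8, whose loss in mice causes excessive grooming, had 0 in each rMSC library and 134, 86 and 68 in control. Hoxb7 had 0 in each rMSC library and 926, 953 and 913 in control. For each of these genes the groups did not overlap. Hoxb6 had 0 in each rMSC library and 230, 309 and 269 in control. For Hoxb5 the 3 rMSC libraries likewise held 0, against 58, 63 and 84 in control. Hoxb4, a factor known to expand blood stem cells when overexpressed, had 0 in rMSC and 134, 125 and 116 in control. At the head end, Hoxb3 and Hoxb2 are genes of the hindbrain. Hoxb3 had 0 in rMSC and 125, 103 and 126 in control, and Hoxb2 had 0 in rMSC and 514, 483 and 525 in control. Hoxb1 and Hoxb13, the genes at the outer ends, had 0 in both groups.

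With rMSC set at 3 counts in each library, Hoxb9 was at least 379-fold lower, Hoxb7 at least 287-fold, Hoxb2 at least 156-fold, Hoxb6 at least 83.4-fold, Hoxb4 at least 38.4-fold, Hoxb3 at least 36.4-fold, Hoxb8 at least 29.2-fold and Hoxb5 at least 21.2-fold. Adjusted p-values ran between 3.78e-06 for Hoxb9 and 0.00486 for Hoxb6. No Hoxb call in this comparison was lost under any alternative that was run, the libraries left out in turn included. Hoxb2 and Hoxb3 share 27.3 and 52.9% of their exon length with the antisense gene Hoxb3os, and counting by strand is not stated, so their counts may include antisense reads. Hoxb4, Hoxb6, Hoxb7, Hoxb8 and Hoxb9 share no exon with another annotated gene.

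**Figure D2:**
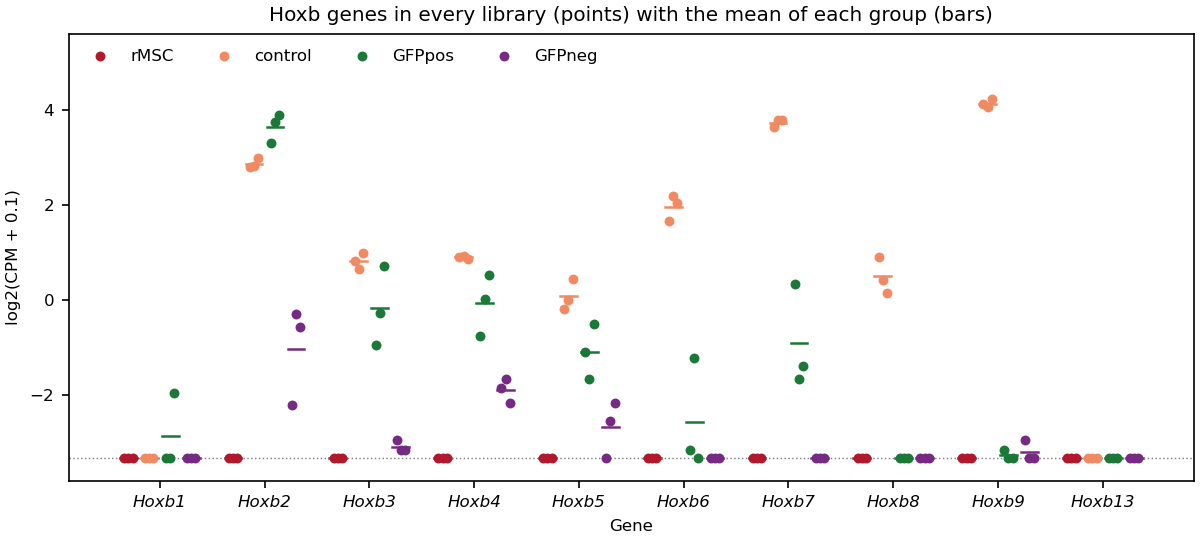
Levels of the 10 Hoxb genes, as log2(CPM + 0.1), in each library (points) with group means (bars), groups ordered rMSC, control, GFPpos and GFPneg within each gene; the dotted line marks 0 counts. All rMSC points lie on that line, control points of Hoxb2 to Hoxb9 lie above it, and Hoxb8 has counts in control only.

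The Hoxb genes at 0 in rMSC were neighbours along the chromosome. The scan that follows restates these known counts and is a description only. Of 11762 genes with at least 50 counts in every control library, 99 (0.842%) had 0 counts in every rMSC library, and 8 of the 23 Hox genes past that minimum were among them, all of them Hoxb genes. The minimum was chosen after the Hoxb counts had been seen. Along the chromosomes, among genes with an annotated position, the longest run of neighbouring genes past the minimum and at 0 in rMSC was 9 genes, which began at Gm53, a long non-coding RNA gene between Hoxb13 and Hoxb9, and ended at Hoxb2. The next longest run held 2 genes. Gm53, named after its values were seen, had 0 counts in each rMSC library and 210, 241 and 176 in control, and 0 in each GFPpos library. In the opposite direction, 46 of 11525 genes with at least 50 counts in every rMSC library had 0 in every control library, 0 of 14 Hox genes were among them, and the longest run was 2 genes. With a minimum of 20 counts the Hoxb run was again 9 genes and the next longest 3, and with 100 counts these were 7 and 2. Other pairs of groups also held runs. Among genes with at least 50 counts in every GFPpos library, the longest run at 0 in GFPneg was 7 genes, Pcdhac2 to Pcdhb8. The longest run at 0 in control was 4 genes, and that in rMSC also 4.

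Genes on either side were transcribed in rMSC. On the Hoxb13 side, Atp5g1, an ATP synthase subunit gene 118.6 kb before the cluster, had 5966, 6606 and 7410 counts in rMSC libraries, against 7712, 7356 and 7088 in control. Ube2z, a ubiquitin-conjugating enzyme gene at 128.9 kb, had 9880, 10170 and 11489 counts in rMSC and 9801, 10121 and 8341 in control. Of the genes in between, Calcoco2 had 0 counts in both groups and Ttll6, 28.9 kb before the cluster, had 0, 0 and 7 in rMSC and 0, 2 and 0 in control. On the Hoxb1 side, Skap1, an adaptor gene of immune cells 96.3 kb beyond the cluster, had 35, 47 and 52 counts in rMSC and 21, 8 and 7 in control. Snx11, a sorting nexin gene, had 912, 911 and 792 counts in rMSC and 1050, 1010 and 884 in control. The nearest well-covered neighbours therefore had counts in both cultures, at distances of 118.6 kb on 1 side and 399.3 kb on the other. Genes nearer the cluster had few or no counts, so the ends of the silent stretch cannot be placed exactly.

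**Figure D3:**
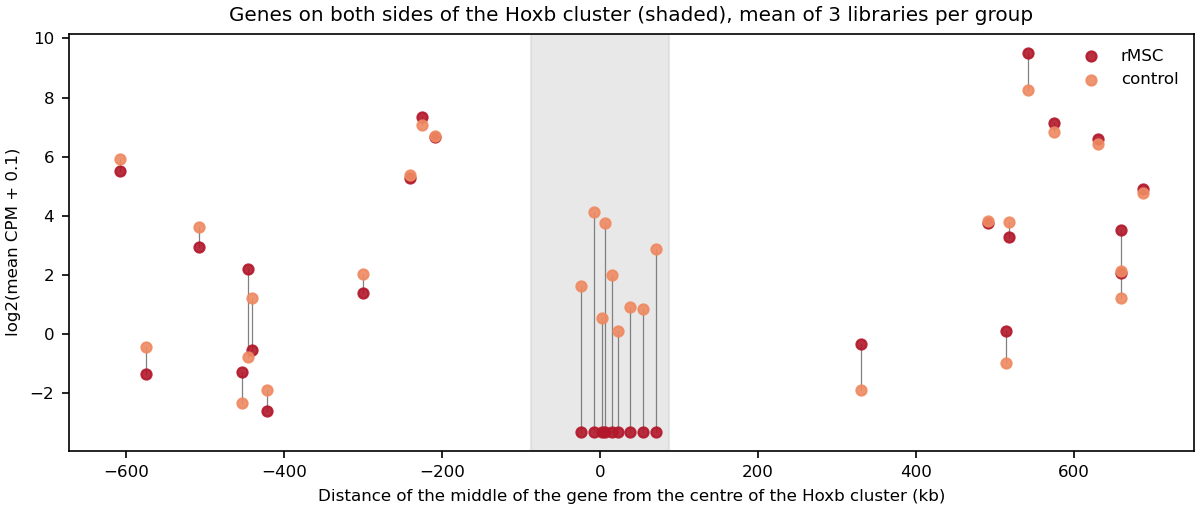
Mean level, as log2(mean CPM + 0.1) over 3 libraries, of genes with at least 20 counts in a culture library, against the distance of the gene's middle from the centre of the Hoxb cluster in kb; grey lines join the rMSC and control points of a gene and the shaded band is the cluster. Inside the band every rMSC point is at 0, and outside it rMSC points lie on both sides of their control points.

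The Hoxd cluster was nearly silent in rMSC as well, with 6, 0 and 0 counts over its 9 genes in the rMSC libraries, against 146, 88 and 103 in control. Hoxd8 had 4, 0 and 0 counts in rMSC and 136, 75 and 87 in control (log2 fold change -5.95 ± 1.01 SE, adjusted p = 0.000585). Hoxd9, which acts in patterning of the upper limb segment, had 2, 0 and 0 counts in rMSC and 10, 10 and 10 in control (adjusted p = 0.0122). rMSC lay below control in every library for both genes, on few counts. With the 6 culture libraries filtered and fitted alone, 1 Hoxd gene was called lower, against 2 in the fit of all libraries. Hoxd9 had 134, 82 and 98 counts in GFPpos, and a gene can pass the filter through such a group. Hoxd3 had 0 in rMSC and 0, 0 and 4 in control, too few to test. Hoxd8 and Hoxd9 share no exon with another gene, whereas Hoxd3 and Hoxd4 share 62.8 and 52.3% of their exon length with each other and with other annotated genes.

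The Hoxc cluster changed unevenly along its length. Hoxc6, a gene of the thoracic region, had 62.5, 64.9 and 62.1 CPM in rMSC libraries and 34.3, 33.1 and 33.0 in control (0.92 ± 0.18, adjusted p = 0.003). Its rMSC libraries all lay above all control libraries, and its call was the only rise among Hox genes that held without each library in turn. At the tail end, Hoxc13, required for hair and nail formation, had 80, 78 and 72 counts in rMSC and 476, 501 and 468 in control (-2.53 ± 0.84, adjusted p = 0.034). Hoxc12 had 0, 0 and 1 counts in rMSC and 13, 18 and 18 in control (adjusted p = 0.0132). The groups did not overlap, but the Hoxc13 call was lost without any 1 of the 6 culture libraries (adjusted p = 0.0824 to 0.11) and the Hoxc12 call without rMSC replicate 1 or 2 (adjusted p = 0.0589 each).

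The other 6 Hoxc genes did not pass. Hoxc4, Hoxc5 and Hoxc11 had estimates of -0.19, 0.30 and 0.78. Hoxc10, a gene of the lumbar region and hindlimb, had 52.8, 50.4 and 49.6 CPM in rMSC and 45.9, 43.0 and 44.0 in control (0.20 ± 0.25, adjusted p = 0.544). Hoxc8, a thoracic gene, had 22.2, 24.4 and 21.9 CPM in rMSC and 33.5, 29.9 and 32.9 in control (-0.49 ± 0.24, adjusted p = 0.107). Hoxc8 passed as lower by DESeq2 and without GFPneg replicate 1 (edgeR adjusted p = 0.0456). Hoxc9 averaged 20.4 ± 0.448 CPM in rMSC and 14.7 ± 1.11 in control (0.47 ± 0.33, adjusted p = 0.263). In Hoxc8, Hoxc9 and Hoxc10 the groups did not overlap and the differences missed the threshold. How often all genes lacked an overlap was not counted. Hoxc10 shares 8.70% of its exon length with Hoxc5. With the 6 culture libraries fitted alone, 3 Hoxc genes passed as higher and 3 as lower, against 1 and 2 in the fit of all libraries. In that fit Hoxc8 passed as lower (-0.49, edgeR adjusted p = 2.84e-05). Hoxc9 (0.47, adjusted p = 0.000126) and Hoxc10 (0.20, adjusted p = 0.00349) passed as higher. The fit of the cultures alone differed in its estimate of the spread, its filter, its scaling factors and its p adjustment. Which of these changed the calls was not tested.

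Hoxa genes stayed in both cultures, and 2 of the 10 tested rose, where 24.5% of all tested genes were called higher and 25.5% lower. Hoxa10, a gene of the lumbar region and the uterus, had 58.9, 58.8 and 61.4 CPM in rMSC and 43.5, 40.2 and 41.7 in control (0.51 ± 0.17, adjusted p = 0.0253). Hoxa9 had 20.9, 19.0 and 19.4 CPM in rMSC and 13.2, 14.6 and 15.1 in control (0.47 ± 0.17, adjusted p = 0.0405). Both genes were higher in every rMSC library than in any control library, but both calls were lost without any 1 of the 6 culture libraries, at adjusted p = 0.0558 to 0.0809 for Hoxa10 and 0.0732 to 0.131 for Hoxa9. Hoxa7 had 5.55, 4.42 and 4.89 CPM in rMSC and 6.21, 5.00 and 4.94 in control, an overlap. Hoxa2 to Hoxa6 and Hoxa11 had estimates between -0.72 and 0.39 with adjusted p of 0.218 or more. 0 of 10 tested Hoxa genes fell by edgeR, with 0 at an unadjusted p under 0.05, 0 by DESeq2 and 1 with the 6 culture libraries alone.

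Paralogue group 9 shows the clusters side by side, since all 4 hold a gene of that number. In rMSC against control, Hoxa9 averaged 19.8 ± 0.968 against 14.3 ± 0.983 CPM, Hoxc9 20.4 ± 0.448 against 14.7 ± 1.11, Hoxb9 0 against 17.5 ± 1.13 and Hoxd9 0.0109 ± 0.0189 against 0.142 ± 0.00814. Hoxb9 was thus the most abundant gene of its number in control by CPM and at 0 in rMSC, while its Hoxa and Hoxc counterparts lay higher in rMSC. Summed over clusters, Hoxa genes came to 92.3 ± 1.27 CPM in rMSC and 68.7 ± 1.23 in control and Hoxc genes to 165 ± 4.74 and 137 ± 5.40. Hoxb genes came to 0 CPM in rMSC and 47.5 ± 2.32 in control.

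**Figure D4:**
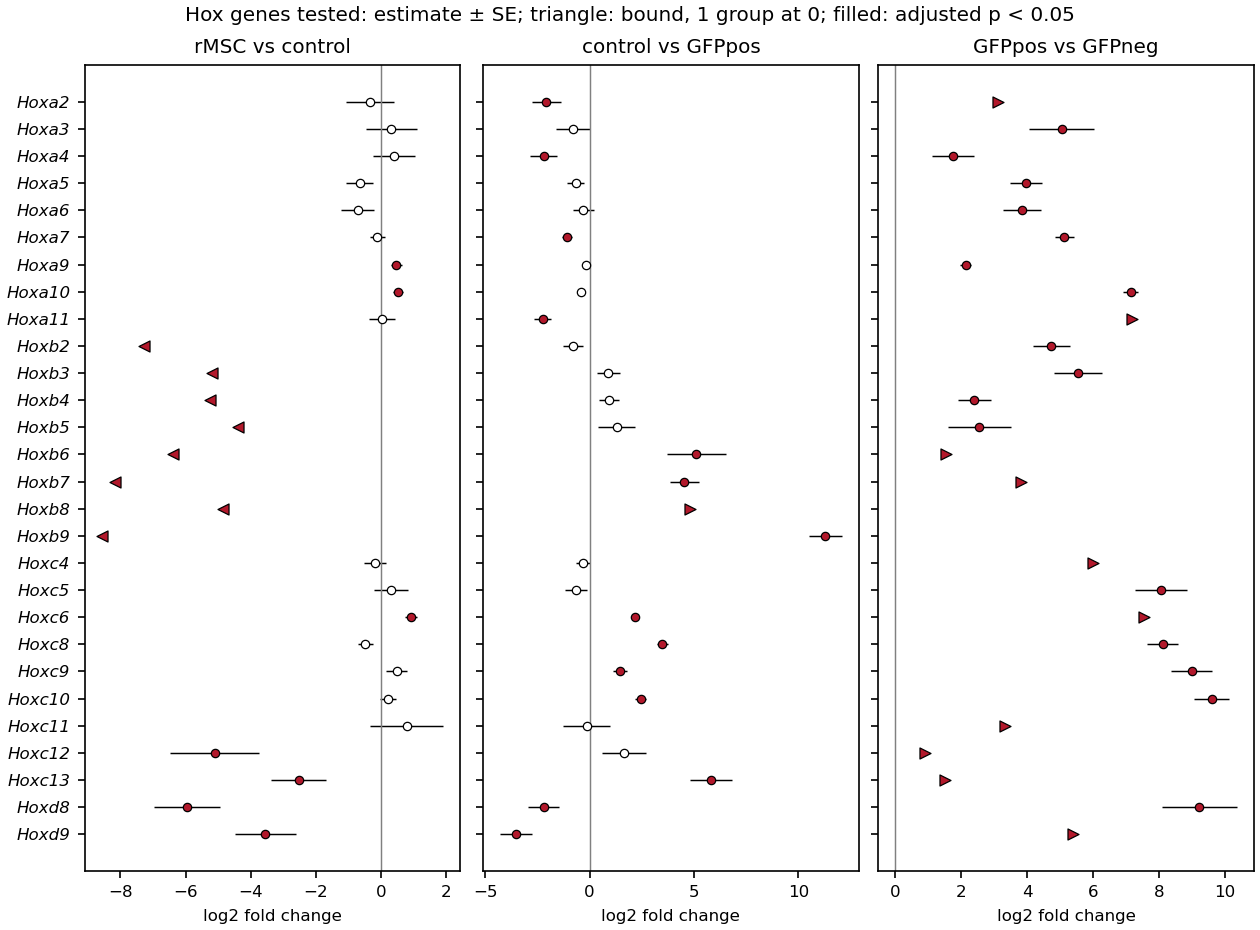
Log2 fold changes of tested Hox genes (rows, Hoxa2 at the top to Hoxd9 at the bottom) for rMSC against control, control against GFPpos and GFPpos against GFPneg; circles are estimates with SE bars, triangles are bounds where 1 group had no counts, filled symbols passed adjusted p under 0.05, and genes at or under the floor in both groups are left out. All Hoxb triangles of the left panel point to lower levels in rMSC, the middle panel has calls on both sides, and all filled symbols of the right panel are on the side of GFPpos.

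Control against GFPpos compares cultured stroma carrying the control vector with the freshly sorted cells. Culture, transduction and a change in the cells present cannot be told apart here. The genes that rose lay in the Hoxb and Hoxc clusters, and those that fell in the Hoxa and Hoxd clusters. Of the 29 genes tested, 9 rose (Hoxb6 to Hoxb9, Hoxc6, Hoxc8 to Hoxc10 and Hoxc13) and 6 fell (Hoxa2, Hoxa4, Hoxa7, Hoxa11, Hoxd8 and Hoxd9), where 32.5% of all genes were called higher and 35.9% lower (68.3% in either direction). Of 8 pan-haematopoietic markers 7 fell in the same comparison, as did 6 of 6 megakaryocyte and 5 of 8 stroma markers. The sums were 14.5 to 15.9 CPM in control and 142 to 319.8 in GFPpos for the pan-haematopoietic list, and 6.33 to 6.77 in control and 144 to 2612 in GFPpos for the megakaryocyte list. Their part in the Hox differences was not tested. The median log2 fold change was -0.14 for the Hox genes and -0.04 for all tested.

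Hoxb9 was at or under the floor in the fresh cells. It had 1294, 1145 and 1253 counts in control libraries, against 1, 0 and 0 in GFPpos (adjusted p = 2.15e-06). Hoxb8 had no count in GFPpos and was at least 27.9-fold higher in control (adjusted p = 0.00115). Hoxb7 had 12.3, 13.7 and 13.6 CPM in control and 1.16, 0.219 and 0.283 in GFPpos (4.54 ± 0.71, adjusted p = 0.00111), and Hoxb6 had 230, 309 and 269 counts in control and 1, 18 and 0 in GFPpos (5.10 ± 1.41, adjusted p = 0.0158). The 4 genes nearer the head end did not pass: Hoxb2 had 6.85, 6.95 and 7.83 CPM in control and 9.73, 13.3 and 14.8 in GFPpos, and Hoxb3, Hoxb4 and Hoxb5 had estimates between 0.90 and 1.29. Hoxb2 passed as lower without GFPneg replicate 1 (adjusted p = 0.0133), and Hoxb3 and Hoxb4 as higher without GFPpos replicate 3 (adjusted p = 0.0287 and 0.0386). In GFPpos cells Hoxb2 alone supplied 9.73 to 14.8 of the 12.2 to 18.7 CPM of Hoxb RNA.

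In the Hoxc cluster, Hoxc8 had 33.5, 29.9 and 32.9 CPM in control and 2.46, 3.81 and 2.41 in GFPpos (3.48 ± 0.26, adjusted p = 8.32e-07). Hoxc10 had 45.9, 43.0 and 44.0 CPM in control and 5.36, 6.96 and 11.9 in GFPpos (2.46 ± 0.27, adjusted p = 1.34e-05). Hoxc6 had 34.3, 33.1 and 33.0 CPM in control and 5.11, 7.51 and 9.36 in GFPpos (2.20 ± 0.19, adjusted p = 1.07e-05). None of these 3 genes had an overlap between the groups. Hoxc13 averaged 6.84 ± 0.449 CPM in control and 0.111 ± 0.162 in GFPpos (5.83 ± 1.01, adjusted p = 0.000804), and Hoxc9 averaged 14.7 ± 1.11 and 5.32 ± 2.65 CPM (1.46 ± 0.34, adjusted p = 0.00281). The other 4 Hoxc genes did not pass: Hoxc4 and Hoxc5 at the head end had estimates of -0.33 and -0.66, and Hoxc11 and Hoxc12 on the tail side -0.14 and 1.65 (adjusted p = 0.918 and 0.19).

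Among genes that fell, Hoxa11, the gene of the forearm and lower leg segment, averaged 1.22 ± 0.222 CPM in control and 5.73 ± 2.57 in GFPpos (-2.24 ± 0.41, adjusted p = 0.00118). It shares 35.0% of its exon length with the antisense gene Hoxa11os, which fell in the same comparison (-2.01 ± 0.40, adjusted p = 0.00187), and reads of the pair cannot be told apart without strand. Hoxa7 had 6.21, 5.00 and 4.94 CPM in control and 9.64, 10.1 and 14.7 in GFPpos (-1.09 ± 0.24, adjusted p = 0.00202). Hoxd8 had 1.81, 1.08 and 1.30 CPM in control and 5.58, 4.87 and 8.63 in GFPpos (-2.19 ± 0.75, adjusted p = 0.0227), a call lost without any of 4 single libraries (adjusted p = 0.0518 to 0.0877). Hoxd9 had 10, 10 and 10 counts in control and 134, 82 and 98 in GFPpos (-3.50 ± 0.77, adjusted p = 0.00326). Hoxa2 averaged 0.0799 ± 0.0116 CPM in control and 0.34 ± 0.0776 in GFPpos, and its call was lost without any of 5 single libraries (adjusted p = 0.0513 to 0.0965). Hoxa9 and Hoxa10 did not pass. Hoxa10 had 43.5, 40.2 and 41.7 CPM in control and 41.6, 51.9 and 70.8 in GFPpos, and passed as lower without GFPpos replicate 1 (adjusted p = 0.00427). Hoxa13, a gene of hands and feet, had 0 counts in control and 49, 0 and 6 in GFPpos, so it was detected mainly in GFPpos replicate 1.

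GFPpos against GFPneg asks what sets the reporter-positive stroma apart. Hox RNA was mostly in GFPpos: of 29 genes tested, 27 rose and 0 fell by edgeR, with 0 lower at an unadjusted p under 0.05 and 0 by DESeq2. Of all genes, 40.5% were called higher and 36.5% lower in this comparison (77.0% in either direction). The 2 genes without a call, Hoxb8 and Hoxb9, were at or under the floor in both groups. Some called genes had few counts and 0 in a GFPpos library, where they met the 0 of GFPneg. GFPpos counts were 40, 0 and 39 for Hoxc11, 6, 8 and 0 for Hoxc12, 24, 2 and 0 for Hoxc13 and 1, 18 and 0 for Hoxb6. With these 2 groups filtered and fitted alone, 22 Hox genes rose and 0 fell. The median log2 fold change of the Hox genes was 5.95 as fitted and 5.04 with genes at 0 set to their bound, against 0.08 over all genes. All 8 stroma markers rose and all 9 red cell markers fell in the same comparison, with the summed levels given above. Other blood and vessel markers differed too. Of those tested, 5 of 6 megakaryocyte, 3 of 6 endothelial and 2 of 8 granulocyte and monocyte markers rose, and 0 fell. Of 8 pan-haematopoietic markers 2 rose and 1 fell, and of 7 stem and progenitor markers 3 rose and 3 fell. Megakaryocyte markers together reached 2612 CPM in a GFPpos library, whereas no GFPneg library exceeded 151. The part of all these markers in the Hox differences was not tested.

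Hoxa10 had 41.6, 51.9 and 70.8 CPM in GFPpos and 0.502, 0.334 and 0.336 in GFPneg (7.14 ± 0.24, adjusted p = 9.04e-10). Hoxc6 had 5.11, 7.51 and 9.36 CPM in GFPpos and 0 in GFPneg, at least 187-fold higher (adjusted p = 3.79e-08). Hoxd8 had 451, 267 and 488 counts in GFPpos and 2, 0 and 0 in GFPneg (adjusted p = 1.97e-05). Hoxb2 had 9.73, 13.3 and 14.8 CPM in GFPpos and 0.118, 0.716 and 0.572 in GFPneg (4.73 ± 0.56, adjusted p = 4.80e-05). No library of GFPpos overlapped GFPneg for any of these 4 genes. Hoxa9 and Hoxa4 stood closest: Hoxa9 had 17.5, 12.5 and 17.7 CPM in GFPpos and 2.85, 3.89 and 4.15 in GFPneg (2.13 ± 0.18, adjusted p = 9.30e-07), and Hoxa4 averaged 0.853 ± 0.412 and 0.251 ± 0.115 CPM (1.76 ± 0.64, adjusted p = 0.0259). Calls of Hoxa4, Hoxb5 and Hoxb6 were lost without 4, 5 and 7 of the single libraries, with adjusted p of up to 0.0965, 0.0895 and 0.191. The Hoxc13 call was lost without replicate 1 of both fresh groups (edgeR adjusted p = 0.074).

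rMSC against GFPpos, which shares libraries with the comparisons above, places the rMSC pattern beside the fresh cells. Of 29 genes tested, 5 rose (Hoxc6, Hoxc8, Hoxc9, Hoxc10 and Hoxc13) and 12 fell (Hoxa2, Hoxa4, Hoxa5, Hoxa7, Hoxa11, Hoxb2 to Hoxb5, Hoxb7, Hoxd8 and Hoxd9), with 33.4% of all genes called higher and 38.2% lower (71.6% in either direction). Markers of other cells were lower in rMSC in the same comparison: 8 of 8 pan-haematopoietic, 8 of 9 red cell and 6 of 6 megakaryocyte markers fell, and so did 5 of 8 stroma markers. The megakaryocyte sum was 4.67 to 6.81 CPM in rMSC and 144 to 2612 in GFPpos, and the part of these cells in the Hox differences was not tested. Hoxb2 had 0 counts in rMSC and 787, 732 and 836 in GFPpos, at least 274-fold lower (adjusted p = 4.11e-06). Hoxd8 had 4, 0 and 0 counts in rMSC and 451, 267 and 488 in GFPpos (-8.14 ± 1.06, adjusted p = 4.15e-05). Hoxc6 had 62.5, 64.9 and 62.1 CPM in rMSC and 5.11, 7.51 and 9.36 in GFPpos (3.11 ± 0.20, adjusted p = 1.02e-06). Hoxa10, at 59.7 ± 1.43 CPM in rMSC and 54.8 ± 14.8 in GFPpos, overlapped between the groups. The median log2 fold change was -1.21 for the Hox genes and -0.08 for all genes tested. Calls of Hoxa2, Hoxa4 and Hoxa5 were lost without 2, 4 and 2 of the single libraries (adjusted p of up to 0.068, 0.0941 and 0.0646).

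Hox proteins bind DNA with partners of the TALE homeodomain class, the Pbx, Meis and Pknox genes, and all 9 of these were tested. In rMSC against control 3 of the 9 fell, where 25.5% of all genes were called lower. Meis1 had 9.42, 10.4 and 8.60 CPM in rMSC and 52.1, 50.4 and 53.5 in control (-2.46 ± 0.49, adjusted p = 0.00162). Pknox2 had 10.01, 11.6 and 10.1 CPM in rMSC and 57.4, 58.8 and 59.3 in control (-2.47 ± 0.27, adjusted p = 2.69e-05). For both genes every rMSC library lay below every control library. In control against GFPpos 4 rose and 1 fell, where 32.5% of all genes were called higher and 35.9% lower. In rMSC against GFPpos 3 rose and 5 fell, against 33.4% and 38.2% of all genes. GFPpos exceeded GFPneg in 6 and was lower in 2, Pbx4 and Pknox1, against 40.5% and 36.5% of all genes. Meis2, with 5.76 to 13.8 CPM in GFPpos and 0 in GFPneg, was at least 242-fold higher, and Pknox2 had 34.7 to 74.0 CPM in GFPpos and at most 0.0295 in GFPneg.

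**Figure D5:**
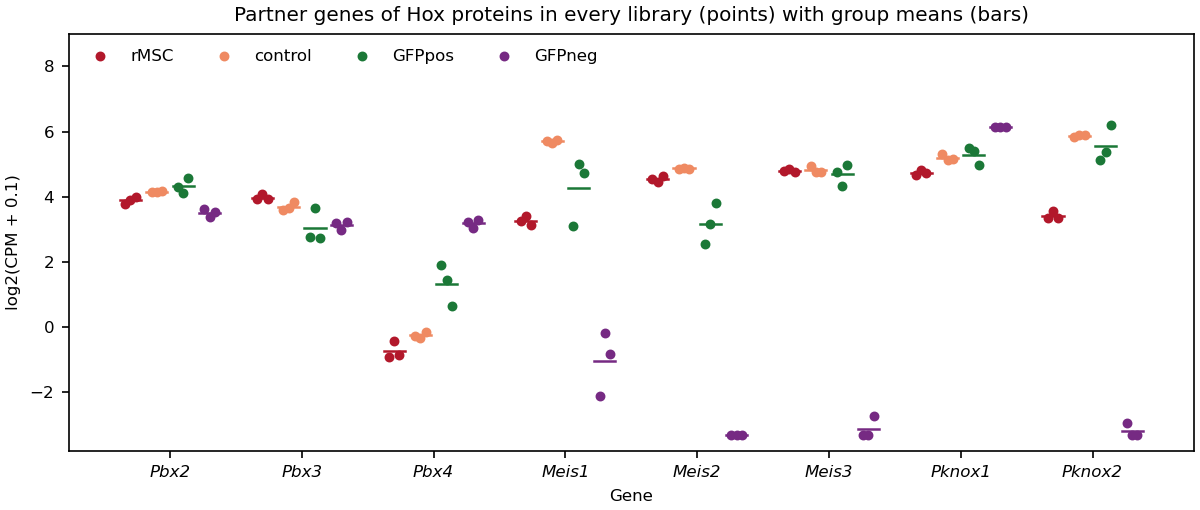
Levels of 8 TALE partner genes, as log2(CPM + 0.1), in each library (points) with group means (bars), groups ordered rMSC, control, GFPpos and GFPneg within each gene. Meis1 and Pknox2 are lower in rMSC than in control, and Meis2, Meis3 and Pknox2 are at or near 0 in GFPneg.

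Upstream of the clusters, trithorax and Polycomb proteins hold Hox genes in active or silent states and retinoic acid receptors activate the head-side genes. Of 26 such regulators, 23 were tested, and in rMSC against control 5 rose and 9 fell, beside 24.5% and 25.5% of all genes (50.1% in either direction). The share that rose was thus close to that of all genes, and the share that fell lay above it. Among those named by size, Rarb, a retinoic acid receptor gene that is itself induced by retinoic acid, averaged 0.687 ± 0.202 CPM in rMSC and 5.34 ± 0.276 in control (-2.96 ± 0.64, adjusted p = 0.00282). Cbx7, a reader subunit of Polycomb complexes, averaged 14.1 ± 1.93 CPM in rMSC and 2.29 ± 0.295 in control (2.63 ± 0.22, adjusted p = 4.24e-06). Ezh1, a histone methyltransferase of the Polycomb repressive class, averaged 125 ± 2.76 CPM in rMSC and 29.3 ± 1.55 in control (2.09 ± 0.13, adjusted p = 3.22e-07). Rarg averaged 188 ± 3.07 CPM in rMSC and 67.9 ± 0.562 in control (1.47 ± 0.27, adjusted p = 0.000918). Levels of other Polycomb genes lay on both sides. Ezh2 averaged 6.48 ± 0.931 CPM in rMSC and 12.5 ± 0.376 in control, and Rnf2 53.2 ± 1.47 and 98.7 ± 4.72. Cbx8 averaged 16.4 ± 1.11 CPM in rMSC and 7.80 ± 1.01 in control. Members of the list thus changed in both directions, with a median log2 fold change of 0.15. In control against GFPpos 8 rose and 6 fell (68.3% of all genes called), in rMSC against GFPpos 9 rose and 9 fell (71.6% of all genes called), and in GFPpos against GFPneg 10 rose and 8 fell (77.0% of all genes called), which set the list near all genes in these comparisons.

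Of 12 genes that flank the clusters in the files, 9 were tested, and 4 rose and 2 fell in rMSC against control (24.5% of all genes higher and 25.5% lower), none of the called changes exceeding 1.06 on the log2 scale. Calcoco1, a gene beside the Hoxc cluster, averaged 241 ± 3.54 CPM in rMSC and 116 ± 1.51 in control (1.06 ± 0.12, adjusted p = 3.06e-05). Evx1, a homeobox gene beyond Hoxa13, was detected in GFPpos only, with 90, 110 and 65 counts there and 0 in the rMSC, control and GFPneg libraries. Of 12 non-coding genes of the clusters in the files, 5 were tested. Hoxa11os, antisense to Hoxa11, had 134, 155 and 211 counts in rMSC and 28, 36 and 38 in control (2.38 ± 0.41, adjusted p = 0.0012), while Hoxa11 itself had 70, 70 and 103 counts in rMSC and 94, 68 and 95 in control (0.02 ± 0.40, adjusted p = 0.997). Hotair, a non-coding RNA of the Hoxc cluster, averaged 0.575 ± 0.108 CPM in rMSC and 0.295 ± 0.12 in control and did not pass.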

How the data were processed

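RNA-seq counts from 12 libraries were used. The files hold raw read counts per gene symbol as deposited by the authors. STAR 2.4.1c, featureCounts 1.4.6 and mm10 are named in the submitters' processing notes. Per the labels' protocols, RNA from 1000 to 5000 sorted cells was amplified with SMART-Seq v4 and Nextera XT and read as 150 bp single ends. The strand setting and the treatment of reads shared by genes are not given in the sources used here. Symbols turned into dates (27, with 0.183 to 0.369% of counts) were left out.

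Genes were filtered with filterByExpr and tested with edgeR 4.0.16 (R 4.3.3; TMM factors, quasi-likelihood test, all 12 libraries in 1 fit, Benjamini-Hochberg over 15163 genes, threshold 0.05). The 4 comparisons share libraries. The pipeline was tested on simulated data. Alternatives were DESeq2 1.42.0, RLE factors, other filters, the compared groups alone, replicate number as a block, and each library left out. CPM per kilobase used GENCODE M21 exon lengths. Folds against a group at 0 are bounds at 3 counts per library.

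The Hox genes, the other lists and the naming rule were chosen with earlier results of these data known. Values per library are given for the 3 most abundant genes of each cluster, for every gene called in rMSC against control, and for paralogues set beside them. From the other lists at most 4 genes were named by size of change. Some stroma markers and Polycomb genes were named beside these for their levels. The scan for genes at 0 was added after the counts had been seen. Replicate numbers are not said to mark a shared animal or day, so libraries were not paired in the main fit. Deviations of same-numbered libraries correlated at 0.16, 0.151 and 0.0174 in the fresh groups and between -0.0249 and 0.0209 elsewhere. Weak correlations over all genes cannot exclude a shared animal or sort. Values of a few genes are not reported here.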

Additional observations from a re-analysis of the deposited data

How the results depend on the processing

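Of the counts of calls, 221 stayed within 1.5 times the reported count under the alternatives run and 7 did not, all for Hox genes higher in rMSC against control: 3 as reported, 6 with the 6 culture libraries alone, and between 1 and 3 with each library left out. Of the log2 fold changes, 1993 kept their direction and side of the threshold, 65 no longer passed, 31 newly passed and 11 changed sign, none of which had passed. Hoxc11 in control against GFPpos (-0.14) was 0.062 with the replicate block, 0.053 without replicate 1 of both fresh groups, and between -0.72 and 0.50 with each library left out. With libraries left out, Hoxa11 (0.02) lay between -0.12 and 0.14 and Hoxa2 (-0.34) between -1.38 and 0.013 in rMSC against control, and Hoxa3 (-0.48) between -0.74 and 0.060 and Hoxa10 (0.12) between -0.038 and 0.35 in rMSC against GFPpos. Without replicate 1 of both fresh groups this Hoxa10 value was -0.038. The cause was not tested. With the replicate block, whose numbers are not said to pair the libraries, rMSC against control had 2 Hox genes higher and 12 lower. In GFPpos against GFPneg, Hoxa4 and Hoxb6 did not pass with this block (edgeR adjusted p = 0.0629 and 0.0767). RLE factors moved 2 levels by more than 1 SD, Hoxb4 (0.708 CPM per kilobase) and Hoxc6 (14.3) in control. Genes with few counts, such as Hoxc12 and Hoxd9, are limited by depth.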
